A study of Homo sapiens with 6 samples.

Results

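The miR-183/96/182 cluster consists of 3 microRNA (miRNA) hairpins on human chromosome 7 that are expressed together in many epithelial tumours and in sensory organs. Every entry named miR-182, miR-183 or miR-96, on either arm of its hairpin, was taken from a table of 787 mature miRNAs, which gave 6 entries: hsa-miR-182-5p, hsa-miR-183-5p, hsa-miR-96-5p and the 3p arms of the same hairpins. The values come from 6 small RNA libraries of A549, an established epithelial cell line derived from a human lung adenocarcinoma. In 3 libraries the cells had received pcDNA4-SMARCA4, a plasmid carrying SMARCA4 (BRG1), a catalytic subunit of SWI/SNF, which remodels chromatin, and in 3 libraries they had received the empty plasmid pcDNA4. All cells were from the same line, were transfected with the same lipid reagent and were sampled at 48 h. Per the labels the plasmid was meant to restore SMARCA4, and the study's title asks how SWI/SNF regulates another miRNA, miR-222. The sources used here do not say whether transfected cells were selected, nor what share of cells carried the plasmid. The level of SMARCA4 itself was not analysed here.

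A miRNA guides Argonaute proteins to messenger RNAs that pair with its seed, the stretch from base 2 to base 8, and lowers the output of those messengers. The hairpins of this cluster lie close together on the same strand and are described as processed from a common primary transcript, after which each mature arm is loaded and degraded on its own. miR-182 is known to repress the transcription factors FOXO1 and FOXO3, and FOXO1 is also a described target of miR-96. miR-96 is the member in whose seed mutations cause inherited hearing loss. miR-183 is known to target EZR, which encodes the membrane linker ezrin, and ITGB1, which encodes an integrin chain. The cluster is frequently reported as abundant in lung carcinoma.

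The mature 5p arms, from RefSeq on GRCh38.p14, are shown with the seed in capitals because the seeds of the members differ by few bases. The seed of miR-96-5p is also that of miR-1271-5p, which is encoded on chromosome 5.
miR-182-5p: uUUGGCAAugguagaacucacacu
miR-96-5p: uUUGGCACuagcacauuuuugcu
miR-183-5p: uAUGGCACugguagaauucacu
miR-1271-5p: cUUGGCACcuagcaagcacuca
Counted from 1 at the 5′ end, the first 8 bases of miR-182-5p and miR-96-5p differed by the single substitution A8C, with the base of miR-182-5p first. Those of miR-182-5p and miR-183-5p differed by U2A and A8C, and those of miR-96-5p and miR-183-5p by U2A. Over the whole arm miR-182-5p and miR-183-5p were the most alike of the 3 pairs, with the same base at 18 of 22 positions when set side by side without gaps. miR-182-5p and miR-96-5p had the same base at 12 of 23 positions and miR-96-5p and miR-183-5p at 13 of 22. Outside the seed, miR-182-5p and miR-183-5p differed by C17U and A22U over those 22 positions. The sources used here do not say how reads matching several miRNAs were counted.

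On GRCh38 (GENCODE 29) the hairpins fall within 4632 bases of chromosome 7, all on the minus strand. MIR183 spans 129774905 to 129775014, MIR96 spans 129774692 to 129774769 and MIR182 spans 129770383 to 129770492, so that MIR183 comes first in the direction of transcription. Between MIR183 and MIR96 lie 135 bases, and between MIR96 and MIR182 lie 4199 bases. No other annotated gene overlaps this span. The protein-coding gene NRF1, on the opposite strand, ends 13300 bases below MIR182. The precursors of miR-182 and miR-96 are shown with both mature arms in capitals, the 5p arm first, to show where the abundant and the scarce arm of each hairpin lie.
MIR182: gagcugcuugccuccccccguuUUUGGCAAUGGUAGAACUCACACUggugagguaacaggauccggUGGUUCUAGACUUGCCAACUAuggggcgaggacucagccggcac
MIR96: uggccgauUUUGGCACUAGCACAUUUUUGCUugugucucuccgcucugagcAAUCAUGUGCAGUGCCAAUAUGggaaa

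The deposited values are read counts per miRNA scaled by 1 factor per library, called normalized counts here. The read totals recovered from them ranged from 701885 to 7274329 in SMARCA4 libraries and from 881370 to 1079944 in empty vector libraries. SMARCA4 replicate 2 held 8.33 times the mean total of the other 5 libraries. The normalized counts of that library added up to 3073322, against 1661870 to 1835229 in the others. Of 8 epithelial marker miRNAs 7 were listed, with a summed level of 727 to 914 normalized counts in SMARCA4 libraries and 599 to 863 in empty vector libraries. That sum hides moves in both directions. With SMARCA4, 2 of these 7 rose, against 1.41% called in either direction among all miRNAs tested: miR-141-3p by 2.55 and miR-203a-3p by 2.83 on the log2 scale (limma adjusted p = 0.0124 for both). miR-200b-3p had a log2 fold change of −1.14 with groups that did not overlap, and did not pass (limma adjusted p = 0.109). Without SMARCA4 replicate 1 or without empty vector replicate 1 limma called 0 miRNAs of all kinds, with 119 and 103 at an unadjusted p under 0.05. The part of these markers in the levels of the cluster was not tested. Of 7 blood cell markers 3 were listed, and their sum was 7962 to 14458 in SMARCA4 libraries and 5621 to 7213 in empty vector libraries, nearly all of it miR-486-5p. Of 6 fibroblast and muscle markers 5 were listed. miR-143-3p averaged 71.5 normalized counts with SMARCA4 and 38.8 with the empty vector, and miR-145-5p had 1 read, in a SMARCA4 library. miR-214-3p, miR-1-3p and miR-133a-3p were at 0 in every library. The 4 listed of 6 neuron and sensory markers summed to 1853 to 2071 with SMARCA4 and 1128 to 1872 with the empty vector. The 2 endothelial markers, miR-126-3p and miR-126-5p, summed to 1200 to 1401 with SMARCA4 and 746 to 1490 with the empty vector. The series' design text calls the 3 libraries of a group separate biological replicates.

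The 3 members differed far more from each other than either group did from the other. miR-182-5p, the FOXO-repressing arm, was among the 8 most abundant miRNAs of every library, at rank 5 or 6 in SMARCA4 libraries and at rank 6 or 8 in empty vector libraries. miR-183-5p ranked from 44 to 45 in SMARCA4 libraries and from 40 to 58 in empty vector libraries. miR-96-5p ranked from 167 to 242 in SMARCA4 libraries and from 148 to 181 in empty vector libraries. The order miR-182-5p, miR-183-5p, miR-96-5p, miR-183-3p held in all 6 libraries. Adapter ligation differs between miRNAs, so these steps in level between arms are less certain than differences of 1 arm between libraries.

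hsa-miR-182-5p was at 76342, 118789 and 83561 normalized counts in SMARCA4 replicates 1, 2 and 3, and at 51868, 63102 and 63892 in empty vector replicates 1, 2 and 3. All 3 SMARCA4 libraries were above all 3 empty vector libraries, with SMARCA4 replicate 2 the highest in normalized counts. Among all 637 miRNAs tested, the groups did not overlap for 31.1%, and for 15.9% every SMARCA4 library was the higher. The means were 92897 ± 22712 with SMARCA4 and 59621 ± 6726 with the empty vector (SD, n = 3 each), a 1.54-fold difference with a 95% interval of 0.982 to 2.40. The log2 fold change was 0.62 (SE 0.29) and did not pass the test (limma, unadjusted p = 0.0582, adjusted p = 0.230). It was 0.43 without SMARCA4 replicate 2 and 0.30 when libraries were rescaled to the same total, a scaling under which the 637 miRNAs had a median log2 fold change of −0.31, against −0.05 in the deposited scaling. As a share of the library total, miR-182-5p made up 4.21 ± 0.375% with SMARCA4 and 3.43 ± 0.270% with the empty vector (SD, n = 3 each). The groups did not overlap on that scale either. By share SMARCA4 replicate 2 was the lowest SMARCA4 library, at 3.87%, against 4.16% and 4.61% in SMARCA4 replicates 1 and 3. In bulk RNA a lower level per cell and fewer cells carrying a miRNA cannot be told apart.

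hsa-miR-183-5p, the arm known to target EZR, was at 3836, 4723 and 4158 normalized counts in SMARCA4 replicates 1, 2 and 3, and at 3558, 2075 and 4981 in empty vector replicates 1, 2 and 3. The groups overlapped: empty vector replicate 3 was the highest library and empty vector replicate 2 the lowest. The means were 4239 ± 449 with SMARCA4 and 3538 ± 1453 with the empty vector (SD, n = 3 each). The log2 fold change of 0.34 (SE 0.34, 95% interval −0.42 to 1.11) did not pass (limma adjusted p = 0.567). It was 0.0047 without empty vector replicate 2, so the difference rests on that library. With libraries rescaled to the same total it was 0.02, beside the median of −0.31 over all tested miRNAs under that scaling.

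hsa-miR-96-5p, the scarcest of the 5p arms, had a fold change of the opposite sign. It was at 165, 71.0 and 139 normalized counts in SMARCA4 replicates 1, 2 and 3, and at 128, 182.6 and 253 in empty vector replicates 1, 2 and 3. SMARCA4 replicate 2 was the lowest and empty vector replicate 3 the highest, and the other 4 libraries lay between 128 and 182.6. These values rest on 59 to 168 reads per SMARCA4 library and 68 to 155 reads per empty vector library. The means were 125 ± 48.5 with SMARCA4 and 188 ± 62.8 with the empty vector (SD, n = 3 each), and the log2 fold change of −0.62 (SE 0.42, 95% interval −1.56 to 0.33) did not pass (limma adjusted p = 0.406). It shrank to −0.26 without SMARCA4 replicate 2 and to −0.38 without empty vector replicate 3. It grew to −0.86 without SMARCA4 replicate 1, and to −0.86 without empty vector replicate 1. With libraries rescaled to the same total it was −0.94, beside the median of −0.31 over all tested miRNAs under that scaling.

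**Figure D1:**
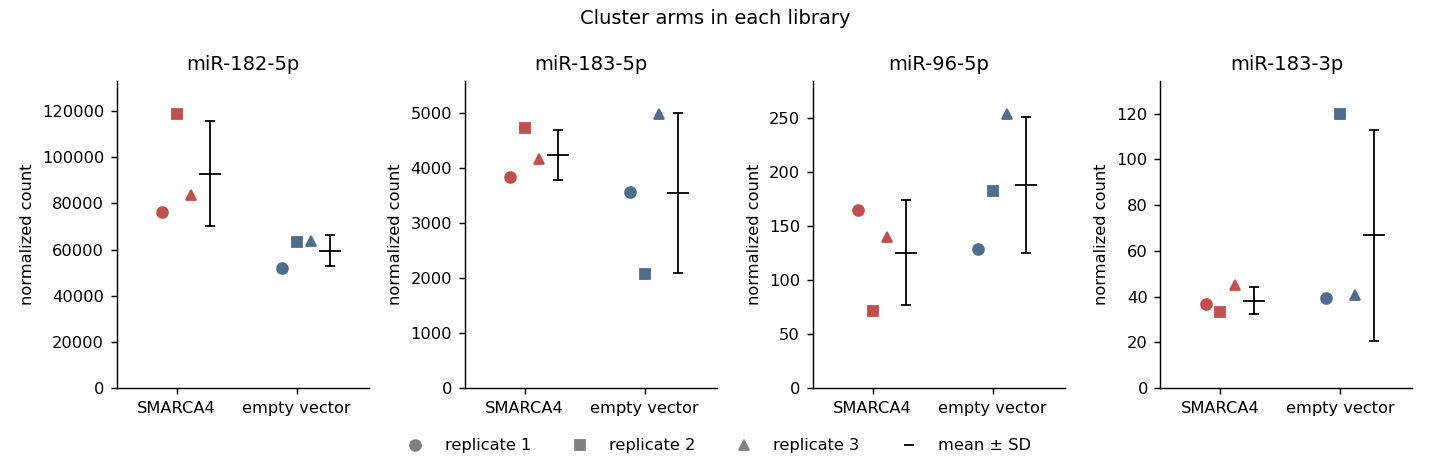
Normalized counts of miR-182-5p, miR-183-5p, miR-96-5p and miR-183-3p in each library, SMARCA4 left and empty vector right, with marker shapes for replicates and black bars for the mean ± SD (n = 3). The groups are separate for miR-182-5p and overlap for the other arms, and empty vector replicate 2 lies at 119.8 for miR-183-3p while the other 5 libraries lie between 33.4 and 44.9.

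The 3p arms of the hairpins were scarce. miR-183-3p was at 36.6, 33.4 and 44.9 normalized counts in SMARCA4 replicates 1, 2 and 3, and at 39.6, 119.8 and 40.9 in empty vector replicates 1, 2 and 3. Empty vector replicate 2 alone was high, and the other 5 libraries lay between 33.4 and 44.9. The log2 fold change was −0.60 (SE 0.49, 95% interval −1.71 to 0.51) and did not pass (limma adjusted p = 0.486), and without empty vector replicate 2 it was −0.08. miR-182-3p had 5 reads over the 3 SMARCA4 libraries and 6 reads over the 3 empty vector libraries. miR-96-3p had 5 reads over the SMARCA4 libraries, 4 of them in replicate 2, and 2 reads over the empty vector libraries. It had 0 reads in SMARCA4 replicate 3 and in empty vector replicate 2, where a count of 0 allows up to 3 reads, or 7.08 and 5.71 normalized counts. No fold is given for these arms, since all but 1 of their values were at or under 3 reads.

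The test over all 637 miRNAs with a mean of at least 1 called 9 of them (limma adjusted p under 0.05), which is 1.41%, and 0 of the 6 arms were among these. At an unadjusted p under 0.05 limma called 22.6% of all tested miRNAs and 0 of the 6 arms. Run on the recovered reads, edgeR called 0 arms at an adjusted p under 0.05, against 1.26% of all tested miRNAs, and 1 at an unadjusted p under 0.05, against 24.0%. That arm was miR-182-5p (edgeR unadjusted p = 0.0455, adjusted p = 0.198). DESeq2 gave an adjusted p for 4 of the 6 arms and called 0 of them at an adjusted p under 0.05. Of all tested miRNAs it called 6.91%, a share in which 212 with an undefined adjusted p count as not called. At an unadjusted p under 0.05 DESeq2 called 0 of the 6 arms, against 18.1% of all tested miRNAs. The number of miRNAs called was 0, 41 and 1 when SMARCA4 replicate 1, 2 or 3 was left out, and 0, 12 and 2 when empty vector replicate 1, 2 or 3 was left out. The intervals leave room for a 2.40-fold rise of miR-182-5p and for a fall of miR-96-5p to 0.338 of its empty vector level, so a p above the threshold does not show that the arms were at the same level in both groups.

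**Figure D2:**
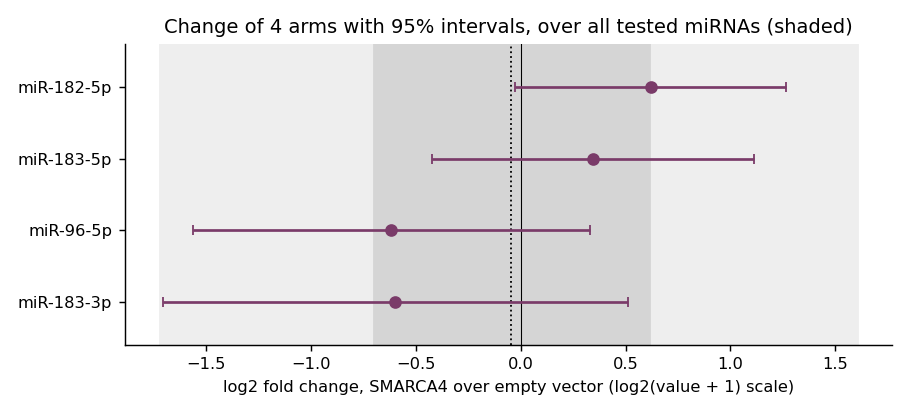
Log2 fold change of 4 cluster arms, SMARCA4 over empty vector on the log2(value + 1) scale, as points with 95% limma intervals; the dark band holds the middle 50% and the light band the middle 90% of all 637 tested miRNAs, and the dotted line is their median of −0.05. All 4 intervals include 0, and the point of miR-182-5p at 0.62 lies at the upper edge of the dark band.

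Added together, the 5p arms reached 97261 ± 23103 normalized counts with SMARCA4 and 63347 ± 7006 with the empty vector (SD, n = 3 each). That is 4.42 ± 0.414% of the library total with SMARCA4 and 3.65 ± 0.287% with the empty vector. miR-182-5p supplied 95.02% to 96.12% of this sum in SMARCA4 libraries and 92.43% to 96.55% in empty vector libraries, so the summed level restates miR-182-5p. miR-183-5p supplied 4.44 ± 0.538% with SMARCA4 and 5.59 ± 2.13% with the empty vector, and miR-96-5p supplied 0.140 ± 0.0755% and 0.292 ± 0.0688% (SD, n = 3 each).

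Ratios within a library asked whether hairpins of the cluster moved together. The fold ratios do not depend on how libraries are scaled. The log2 ratios were taken on log2(value + 1), so for scarce arms they depend on it slightly. miR-182-5p exceeded miR-96-5p by 463-fold, 1674-fold and 600-fold in SMARCA4 replicates 1, 2 and 3, and by 405-fold, 346-fold and 252-fold in empty vector replicates 1, 2 and 3. Each SMARCA4 library had less miR-96-5p per miR-182-5p than each empty vector library. The log2 ratio of miR-96-5p to miR-182-5p averaged −9.58 ± 0.974 with SMARCA4 and −8.35 ± 0.345 with the empty vector (SD, n = 3 each), a difference of −1.24. The exact permutation test (two-sided) gave p = 0.1, which 3 against 3 libraries cannot go below, and 0.3 after adjustment over the 3 ratios between members. Without SMARCA4 replicate 2 the difference was −0.68.

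The other ratios overlapped between groups. miR-182-5p exceeded miR-183-5p by 19.9-fold, 25.2-fold and 20.1-fold in SMARCA4 replicates 1, 2 and 3, and by 14.6-fold, 30.4-fold and 12.8-fold in empty vector replicates 1, 2 and 3. Empty vector replicate 2 held the highest value and empty vector replicate 3 the lowest, and the SD of the log2 ratio was 0.191 among SMARCA4 libraries and 0.672 among empty vector libraries. The difference in log2 ratio was 0.27 (exact two-sided permutation p = 0.5, adjusted p = 0.5), and 0.66 without empty vector replicate 2. For miR-96-5p to miR-183-5p the log2 ratio averaged −5.15 ± 0.785 with SMARCA4 and −4.19 ± 0.648 with the empty vector (SD, n = 3 each), and the difference of −0.96 had an exact two-sided permutation p of 0.2 (adjusted p = 0.3).

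The arms of the miR-183 hairpin could be compared in every library. miR-183-5p exceeded miR-183-3p by 105-fold, 142-fold and 92.7-fold in SMARCA4 replicates 1, 2 and 3, and by 89.9-fold, 17.3-fold and 122-fold in empty vector replicates 1, 2 and 3. Empty vector replicate 2 stood apart because its 5p arm was the lowest and its 3p arm the highest of the 6 libraries. The difference in log2 ratio was 0.94 (exact two-sided permutation p = 0.4). Over 97 hairpins with both arms at a mean of at least 10, the median share of the less abundant arm was 7.62% in empty vector replicate 2, within the range of 5.08% to 9.09% over the 6 libraries. That library had the highest such share for 27 of the 97 hairpins. At the miR-183 hairpin the 3p arm held 5.46% there, against 0.702% to 1.101% in the other 5 libraries.

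**Figure D3:**
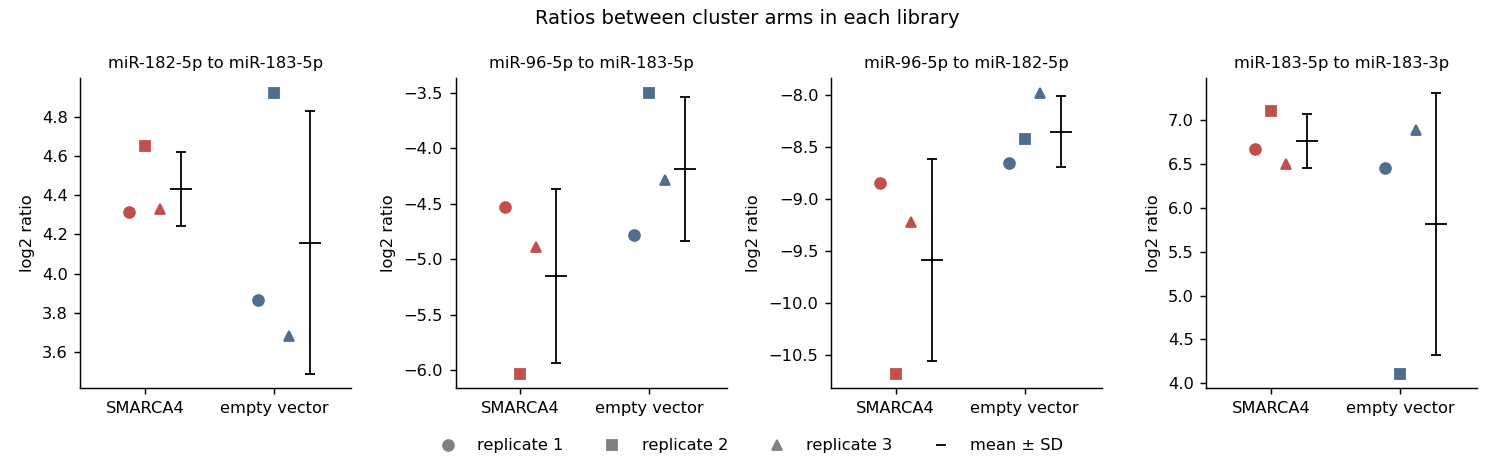
Log2 ratios between cluster arms in each library, SMARCA4 left and empty vector right in each panel, with marker shapes for replicates and black bars for the mean ± SD (n = 3); axes do not start at 0. The groups are separate for miR-96-5p to miR-182-5p, and empty vector replicate 2 lies at 4.103 for miR-183-5p to miR-183-3p, below the other 5 libraries at 6.45 to 7.10.

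Profiles over the 6 libraries were compared by the root mean square difference of log2(value + 1), each miRNA centred on its own mean, among miRNAs with a mean of at least 10. This distance is a description over 6 libraries that differed in depth, and the depth and scaling of a library apply to all its miRNAs alike. The members were not each other's nearest profiles. For miR-182-5p, miR-183-5p ranked 75 of 420 at a distance of 0.43 and miR-96-5p ranked 301 at 0.86, where the median over all 420 was 0.65. For miR-183-5p, miR-96-5p ranked 245 of 420 at 0.76, and the median was 0.71.

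The profile nearest to miR-182-5p was that of miR-486-5p, a miRNA of red blood cells, at a distance of 0.11. miR-486-5p was at 7873, 14426 and 7983 normalized counts in SMARCA4 replicates 1, 2 and 3, and at 5574, 6306 and 7198 in empty vector replicates 1, 2 and 3. As with miR-182-5p, SMARCA4 replicate 2 was the highest and the groups did not overlap, but the log2 fold change of 0.61 (SE 0.31) did not pass (limma adjusted p = 0.257), and it was 0.33 without SMARCA4 replicate 2. The other blood cell markers listed, miR-142-5p and miR-150-5p, averaged 54.9 and 1.07 normalized counts with SMARCA4 and 21.3 and 1.26 with the empty vector. The rest of the blood cell markers, miR-451a, miR-144-3p, miR-142-3p and miR-223-3p, were not among the miRNAs listed. The part of blood cell RNA in the level of miR-182-5p was not tested. The next nearest were miR-28-3p and miR-7706, at distances of 0.12 and 0.13 and with log2 fold changes of 0.75 and 0.59 (limma adjusted p = 0.129 and 0.275).

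The profile nearest to miR-183-5p was that of miR-191-5p, at a distance of 0.07. miR-191-5p was at 30200.0, 43011 and 35501 normalized counts in SMARCA4 replicates 1, 2 and 3, and at 28985, 18157 and 40813 in empty vector replicates 1, 2 and 3. Both miRNAs thus had their lowest value in empty vector replicate 2, and for miR-191-5p SMARCA4 replicate 2 was the highest. miR-4671-3p and miR-126-5p, an endothelial marker, followed at 0.11 and 0.15. For miR-96-5p the nearest were miR-532-3p at 0.17, miR-20a-5p of the growth-promoting miR-17-92 cluster at 0.22 and miR-32-3p at 0.24. miR-20a-5p was at 784, 300.4 and 687 normalized counts in SMARCA4 replicates 1, 2 and 3, and at 867, 962 and 1127 in empty vector replicates 1, 2 and 3. It was lowest in SMARCA4 replicate 2 and highest in empty vector replicate 3, as miR-96-5p was.

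**Figure D4:**
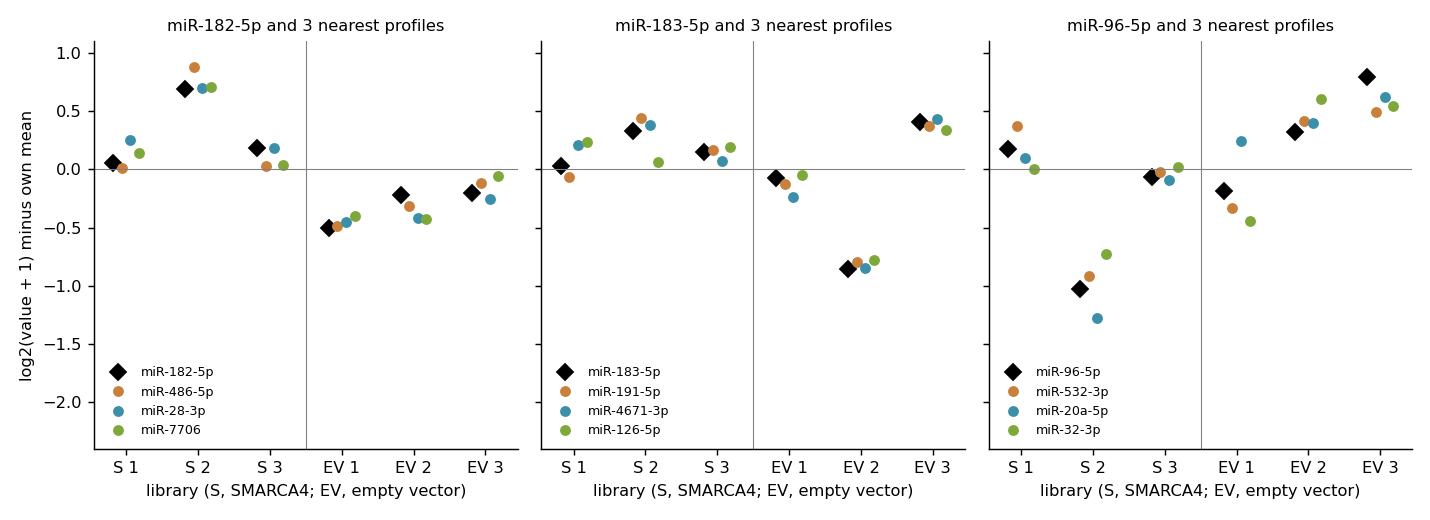
Log2(value + 1) minus its own mean for miR-182-5p, miR-183-5p and miR-96-5p (black diamonds) and the 3 nearest profiles of each (coloured points) in the 3 SMARCA4 (S) and 3 empty vector (EV) libraries; points are shifted sideways for legibility. In the deposited scaling miR-182-5p is highest in S 2, miR-183-5p is lowest in EV 2 and miR-96-5p is lowest in S 2.

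The seed relative of miR-96-5p was nearly undetected. miR-1271-5p had 1 read, in SMARCA4 replicate 3, over the 3 SMARCA4 libraries and 0 reads over the 3 empty vector libraries. The seeds of miR-182-5p and miR-183-5p were carried by no other listed miRNA of the 689 that matched a RefSeq mature sequence by name.

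Other miRNAs encoded within 5 Mb of the cluster came from the hairpins of miR-129-1, miR-335, miR-29a and miR-29b-1. The 3p arms of miR-29 are known to repress collagen genes, miR-29b-3p is also made from a hairpin on chromosome 1, and miR-335 lies in the imprinted gene MEST. Of 7 listed arms 6 were tested and 0 passed (limma, adjusted). All 6 had a negative log2 fold change, against 329 of all 637 miRNAs tested. Their median was −0.57, against −0.05 over all miRNAs tested. Both arms of miR-335, miR-29a and miR-29b-1 make up these 6, so they are not 6 separate observations. The lowest values were those of the less abundant arms miR-29a-5p, at 8.60 ± 5.22 normalized counts with SMARCA4 and 35.8 ± 34.9 with the empty vector, and miR-29b-1-5p, at 24.7 ± 2.002 with SMARCA4 and 65.6 ± 25.6 with the empty vector (SD, n = 3 each; limma adjusted p = 0.201 and 0.109). The groups did not overlap for these 2 of the 6 arms, against 31.1% of all miRNAs tested. Empty vector replicate 2 was the highest library for both arms, as it was for miR-183-3p. Without that library the log2 fold change of miR-29a-5p was −0.95, against −1.69 with it. The most abundant neighbour, miR-29a-3p, was at 6487, 3229 and 6063 in SMARCA4 replicates 1, 2 and 3, and at 7525, 3832 and 7654 in empty vector replicates 1, 2 and 3. Its log2 fold change of −0.27 turned to 0.05 without SMARCA4 replicate 2, as that of miR-335-5p turned from −0.34 to 0.25.

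Other miRNAs described as repressors of FOXO1, the shared target of miR-182 and miR-96, were set beside the cluster. Of 8 in the list 5 were listed in the table and tested, and 0 passed (limma, adjusted). The 5 had a median log2 fold change of 0.37, against −0.05 over all miRNAs tested. The groups did not overlap for 3 of the 5 (miR-27b-3p, miR-9-5p and, lower with SMARCA4, miR-139-5p), against 31.1% of all miRNAs tested. The 4 with a mean of at least 10 had a median log2 fold change of 0.48, against −0.04 over all tested miRNAs at that level. miR-27b-3p was at 265734, 426224 and 247183 normalized counts in SMARCA4 replicates 1, 2 and 3, and at 184004, 148282 and 164156 in empty vector replicates 1, 2 and 3, with no overlap of the groups (log2 fold change 0.88, SE 0.31, limma adjusted p = 0.141). Like miR-182-5p it was highest in SMARCA4 replicate 2 in normalized counts. miR-27a-3p and miR-9-5p had log2 fold changes of 0.37 and 0.60 (limma adjusted p = 0.481 and 0.421), and these are the values between which the median of the 4 lies. miR-9-5p was at 427 normalized counts in SMARCA4 replicate 2 and at 146.4 and 165 in SMARCA4 replicates 1 and 3. It was at 139.5, 144.5 and 145.5 in empty vector replicates 1, 2 and 3, so the groups were barely separate. Its log2 fold change was 0.12 without SMARCA4 replicate 2. That of miR-27a-3p was 0.16 without empty vector replicate 2, and 0.04 with libraries rescaled to the same total, where the median of all tested miRNAs was −0.31. miR-370-3p was at −0.09, and its sign changed under several alternatives. miR-139-5p went the other way. It was at 0, 2.53 and 0 normalized counts in SMARCA4 replicates 1, 2 and 3, and at 7.54, 5.71 and 4.91 in empty vector replicates 1, 2 and 3. The groups did not overlap (log2 fold change −2.19, SE 0.70, limma adjusted p = 0.110). These values rest on 0, 6 and 0 reads in the SMARCA4 libraries and 10 reads over the 3 empty vector libraries.

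**Figure D5:**
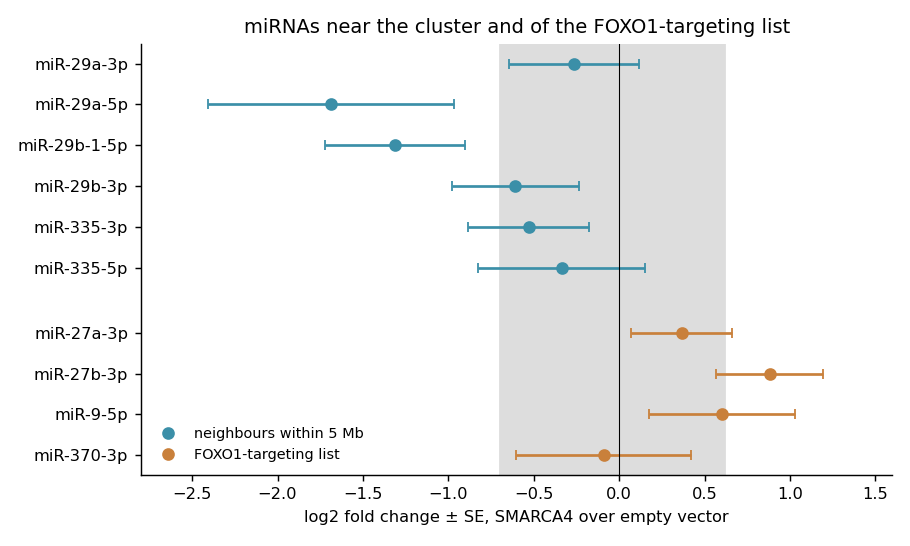
Log2 fold change ± SE, SMARCA4 over empty vector, for miRNAs with a mean of at least 10 that lie within 5 Mb of the cluster (blue) or belong to the FOXO1-targeting list (orange); the band holds the middle 50% of all 637 tested miRNAs. The 6 neighbours lie below 0, 3 of the 4 FOXO1-targeting miRNAs lie above 0, and none of these passed the test. Of all 637 tested miRNAs 308 lie above 0 and 329 below. miR-139-5p of the FOXO1-targeting list, at −2.19, has a mean under 10 and is not drawn.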

How the data were processed

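Small RNA of transfected A549 cells was sequenced in 3 SMARCA4 and 3 empty vector libraries, prepared with the TruSeq small RNA kit, per the labels' protocols. bcl2fastq 2.18.0.12 and build GRCh38 are named per the submitters' processing notes, which in the sources used here give no trimmer, aligner, counting program or miRNA annotation. The authors deposited 1 normalized signal value for each mature miRNA and library, which is the number of reads times a factor of that library; the table's name speaks of TMM scaling. All values (100%) were whole multiples of the smallest step within 1e-06 reads, so read counts were recovered. Counts cover reads assigned to listed miRNAs, and limits from counts cover counting error only.

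The main test was limma 3.58.1 (R 4.3.3) on log2(value + 1) with a mean-variance trend and the group as only term, over 637 miRNAs with a mean of at least 1, with Benjamini-Hochberg adjustment and a threshold of 0.05; 150 were not tested. Fold changes on this scale understate changes of scarce miRNAs. The log2 ratios between arms were differences of log2(value + 1) and were tested by exact permutation (two-sided). edgeR 4.0.16 and DESeq2 1.42.0 on recovered reads, other pseudocounts, filters and scalings, a replicate block and leaving out each library were alternatives. The fits were tested on simulated data. Every pair of libraries differed by more than sampling noise (lowest chi-square per degree of freedom 6.61, for SMARCA4 replicates 1 and 3). SMARCA4 replicate 2 stood at 356 and 362 from SMARCA4 replicates 1 and 3. Those 2 stood at 123 to 305 from the empty vector libraries. This measure grows with read depth, so part of the distance of SMARCA4 replicate 2 can come from its depth. The members, lists and tests were chosen with earlier results of these data known. Named miRNAs were the 6 arms, the 3 nearest profiles of each 5p arm, and members of the lists in the text. miR-375 was listed without an arm.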

Additional observations from a re-analysis of the deposited data

How the results depend on the processing

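The log2 fold changes of miR-182-5p, miR-183-5p and miR-96-5p kept their sign and missed the threshold under all alternatives run. Over those, miR-182-5p ranged from 0.30 to 0.75 (adjusted p 0.146 to 0.510), miR-183-5p from 0.0047 to 0.64 (0.392 to 0.991) and miR-96-5p from −0.94 to −0.26 (0.316 to 0.688). The differences of the 3 ratios between them kept their sign under other pseudocounts and with any 1 library left out; their exact test cannot go below p = 0.1, so its p says nothing of stability. With any 1 library left out the differences ranged from 0.04 to 0.66 for miR-182-5p to miR-183-5p, from −1.27 to −0.52 for miR-96-5p to miR-183-5p and from −1.60 to −0.68 for miR-96-5p to miR-182-5p. The log2 difference of the summed 5p arms was 0.60, and 0.27 with libraries rescaled to the same total, which moved the median of all tested miRNAs from −0.05 to −0.31.

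The number of miRNAs called was 9 (6 higher and 3 lower with SMARCA4), 44 with DESeq2, which left 212 adjusted p-values undefined, and 12 with libraries rescaled to the same total (4 higher, 8 lower). With any 1 library left out it ranged from 0 to 41, with 103 to 167 at an unadjusted p under 0.05. miR-370-3p turned from −0.09 to 0.16 with edgeR and 0.14 with DESeq2, and ranged from −0.60 to 0.30 with 1 library left out. miR-29a-3p ranged from −0.59 to 0.053 and miR-335-5p from −0.66 to 0.25.

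Same-numbered libraries of both groups had correlations of deviations from their group means of 0.07, 0.09 and 0.01 (replicates 1, 2 and 3). Differently numbered libraries had correlations from −0.10 to 0.05. All were small, and whether the replicate number pairs the libraries was not tested. With the replicate block 13 miRNAs were called, and 172 had an unadjusted p under 0.05, against 144 without it. miR-182-5p then had a limma unadjusted p of 0.0263 and an adjusted p of 0.146. SMARCA4 replicate 3 correlated best with empty vector replicate 1 (0.05), the other SMARCA4 libraries with their own number. The fewest reads, 0 to 4 per library, limit miR-182-3p and miR-96-3p, whose differences were not detectable at this depth.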
